A study of Drosophila melanogaster with 5 samples.

Results

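The genes described here lie next to the centromeres of the Drosophila melanogaster chromosome arms 2L, 3L and 3R. They were chosen by position in the dm6 genome: the locus listed by CuffDiff had to start at or beyond 22 Mb on 2L, at or beyond 23 Mb on 3L, or below 5 Mb on 3R, and the gene had to have a row in the deposited edgeR table. Of 236 genes listed in these windows, 136 had such a row, 4 ribosomal protein genes and 4 named genes were left out by the rule, and 128 remained, 22 on 2L, 26 on 3L and 80 on 3R. The windows were chosen with the expression ratios of these genes in view, so all ratios below are a description of the chosen genes and none is a test of them. The background was the 9252 genes found in all 3 deposited tables with values above 0 in both groups, which included all 128 pericentromeric genes.

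The data are RNA-seq of the central nervous system (CNS) of Drosophila larvae of the third instar at 84 h after egg laying, with about 15 CNS pooled in each of 5 libraries. The 2 IP3R knockdown libraries carried the labelled genotype ElavC155GAL4/+; UAS-dsitpr/+; UAS-dicer/+, and the 3 control libraries carried UAS-dsitpr/+; UAS-dicer/+. The itpr RNAi and dicer transgenes were thus present in both groups, and the knockdown group also carried the GAL4 driver that switches them on, so effects of the knockdown, of expressed Dicer-2 and of the driver chromosome cannot be told apart. The label names elavC155, a driver active in most neurons, whereas the study's methods name VGN6341-GAL4, which marks a subset of glutamatergic neurons. The study's figure legend for the RNA-seq values names elavC155, as the label does. The whole CNS was sequenced, so less RNA per cell and fewer cells of a type cannot be told apart.

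The heterochromatin beside a centromere is rich in repeats and transposon remnants, is packed by histone H3 lysine 9 methylation and the HP1 protein, and silences many genes that are moved into it. Genes that normally reside there often have long, repeat-filled introns, and some of them, such as light (lt), need the heterochromatic surroundings for full expression. The windows run across the transition from heterochromatin to euchromatin. Many residents serve functions that every cell needs, including mitochondrial import, transcription and RNA processing.

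The deposited tables hold 1 value per gene and group, not per library. FPKM (fragments per kilobase of transcript, scaled by library depth) came from CuffDiff and mean normalized counts, read counts scaled for library depth and averaged over a group, came from DESeq. The spread between libraries was therefore not available, and no difference below is given with a test over libraries. The authors' own p-values and test statistics per gene were not used. A ratio is the knockdown value over the control value and is given as log2 of the ratio of mean normalized counts unless FPKM is named. A gene was called higher when the knockdown value was at least 25% above the control value in both tables and lower when the ratio was at most 0.8 in both. Intervals are 95% counting intervals of the log2 ratio, which treat the normalized counts times the number of libraries as reads and cover counting error only. Both tables came from the same libraries, and the sign of the ratio was the same in both for 125 of the 128 genes.

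Over all genes, the summed mean normalized counts were 11937845 in the knockdown group and 12742543 in the control group. Itp-r83A, the gene of the IP3R, had 15.0 FPKM in knockdown and 24.7 FPKM in control CNS, a log2 ratio of -0.61, and the 200 genes nearest in exon length had a median log2 ratio of -0.61 as well. Dcr-2, the gene of the RNAi enzyme supplied by the UAS-dicer transgene, had 96.7 FPKM in knockdown and 31.3 FPKM in control CNS. Transcripts of tissues outside the CNS were at lower levels in the knockdown group: summed FPKM was 14.3 in knockdown and 204 in control for salivary gland markers (4 of 4 tested called lower, with Sgs5 and Eig71Ee listed at 0 in knockdown), 152 and 371 for fat body (4 of 4), 317 and 509 for muscle (5 of 5) and 79.1 and 156 for hemocytes (3 of 3). Markers of CNS neurons summed to 344 FPKM in knockdown and 423 in control CNS, with 3 of 6 called lower, so the labelled tissue was present in both groups. Of the other marker lists, 0 of 4 glial genes were called higher and 1 lower, 1 of 4 neuroblast genes higher and 0 lower, 0 of 5 ring gland genes in either direction and 1 of 2 imaginal disc genes lower. The part of these differences in the ratios below was not tested.

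Of the 128 pericentromeric genes, 36 (28.1%) were called higher in knockdown CNS, beside 6.54% of all genes tested. Lower calls numbered 21 (16.4%), the same share as the 16.4% of all genes tested. The median log2 ratio was 0.11 over the 128 genes (0.09 in FPKM) and 0.03 over all genes tested (0.02 in FPKM). The 128 genes did not form one group. On 3L, 20 of 26 genes were called higher and 0 lower, with a median of 0.46 and 25 of 26 genes above 0 in both tables. On 2L, 5 of 22 were called higher and 4 lower, with a median of 0.21. On 3R, all 5 genes below 4 Mb were called higher, with ratios between 0.34 and 0.64, whereas of the 75 genes between 4 and 5 Mb 6 were called higher and 17 lower, with a median of 0.02. Of these 75, the 9 genes between 4 and 4.2 Mb had a median of -0.31, with 1 called higher and 4 lower. The 66 genes between 4.2 and 5 Mb had a median of 0.04, with 5 called higher and 13 lower. The division of 3R at 4 Mb was made after the values were seen. It set the 5 genes below 4 Mb apart from these 9 neighbours, whose median lay below 0.

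**Figure D1:**
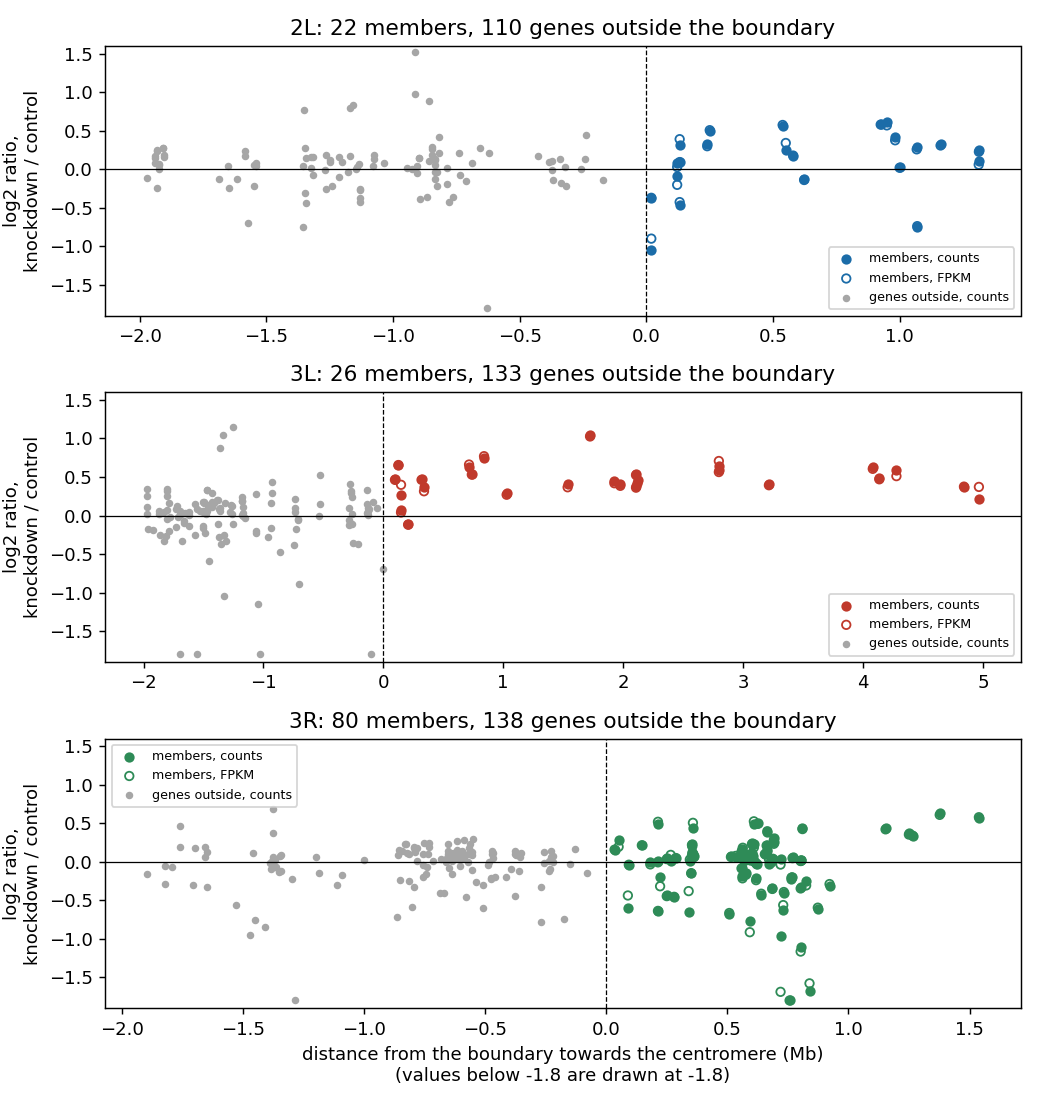
Log2 ratio of knockdown over control (vertical axis) against the distance of the locus start from the boundary of the window, in Mb towards the centromere (horizontal axis), for the 3 arms; filled symbols are ratios of mean normalized counts, open symbols ratios of FPKM, and grey symbols genes within 2 Mb outside the boundary. On 3L 25 of 26 genes lie above 0 inside the boundary, and on 3R the 5 genes farthest inside lie between 0.34 and 0.64.

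The mean normalized counts of the 26 genes on 3L summed to 19820 in knockdown and 14379 in control CNS. Bins of 1 Mb along the 3L window had medians of 0.47 (10 genes, 23 to 24 Mb), 0.41 (5 genes, 24 to 25 Mb), 0.53 (5 genes, 25 to 26 Mb), 0.41 (1 gene, 26 to 27 Mb) and 0.49 (5 genes, 27 to 28 Mb). All 5 bins thus had medians between 0.41 and 0.53. Across the 73 bins of 1 Mb on the same 3 arms that held none of the 128 genes, the medians ran between -0.21 and 0.11, with 3 to 143 genes per bin.

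The gene with the highest ratio was scro (scarecrow, FBgn0287186), which encodes an NK-2 class homeodomain transcription factor of the brain and lies on 3L at 24724162 to 24758036, plus strand. It had 38.4 FPKM in knockdown and 18.8 FPKM in control CNS, and 670 and 324 mean normalized counts. Its log2 ratio of 1.05 had a counting interval of 0.93 to 1.17. CG40470, also on 3L, had 16.7 FPKM in knockdown and 9.78 FPKM in control CNS, a log2 ratio of 0.75 (0.64 to 0.87). CG33217 had 19.1 FPKM in knockdown and 12.1 FPKM in control CNS, with a log2 ratio of 0.65. The ranks of scro, CG40470 and CG33217 among the 9252, counted from the highest ratio, were 31, 102 and 147. Farther in, CG40228 had 98.6 FPKM in knockdown and 64.8 FPKM in control CNS, a log2 ratio of 0.63. CG40045, an abundant gene not called, had 125.5 FPKM in knockdown and 104 FPKM in control CNS, a log2 ratio of 0.30.

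Genes are described next by role, a grouping made after the values were seen and limited to the 53 proximal genes, those of 2L, 3L and 3R below 4 Mb. Of these 53, 30 (56.6%) were called higher, beside 6.54% of all genes tested, and nothing particular to a role is read from the counts that follow. Of 9 genes of transcription and chromatin, 6 were called higher and 1 lower, with a median of 0.49. vtd (verthandi) encodes Rad21, a subunit of the cohesin ring that holds sister chromatids together, and lies on 3L at 27136525 to 27157999. It had 44.5 FPKM in knockdown and 32.2 FPKM in control CNS, a log2 ratio of 0.49 (0.41 to 0.57). Set1, the histone H3 lysine 4 methyltransferase, had 18.4 FPKM in knockdown and 14.3 FPKM in control CNS, with a log2 ratio of 0.38 (0.30 to 0.46). MED21, a Mediator subunit that shares a CuffDiff locus with Set1, had 59.0 FPKM in knockdown and 41.0 FPKM in control CNS, with a log2 ratio of 0.53.

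Parp, the poly(ADP-ribose) polymerase that modifies chromatin and is itself encoded in deep heterochromatin, spans 3461351 to 3587054 on 3R, minus strand. It had 27.3 FPKM in knockdown and 18.3 FPKM in control CNS, a log2 ratio of 0.56 (0.47 to 0.66). Tif-IA, an initiation factor for ribosomal RNA synthesis on 2L, had 45.0 FPKM in knockdown and 31.7 FPKM in control CNS, with a log2 ratio of 0.50. The genes of this role that were not called were both at the distal end of the 2L window. CycK, a cyclin that partners the kinase of elongating RNA polymerase II, had 86.8 FPKM in knockdown and 85.1 FPKM in control CNS. Clamp, a zinc finger protein of the dosage compensation pathway, had 74.7 FPKM in knockdown and 70.1 FPKM in control CNS. The gene of this role called lower was tio (tiptop), a zinc finger transcription factor, with 14.7 FPKM in knockdown and 19.0 FPKM in control CNS.

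Of 4 proximal genes with RNA roles, 3 were called higher and all 4 were above 0 in both tables, with a median of 0.48. Dbp80, a DEAD-box RNA helicase of messenger RNA export on 3L (27279316 to 27422159, plus strand), had 79.5 FPKM in knockdown and 55.8 FPKM in control CNS, a log2 ratio of 0.59 (0.51 to 0.67). CG17454, annotated as the splicing factor gene Spf30, had 54.8 FPKM in knockdown and 34.7 FPKM in control CNS, with a log2 ratio of 0.63. eIF-4B, a translation initiation factor, had 96.4 FPKM in knockdown and 74.4 FPKM in control CNS, with a log2 ratio of 0.38. Spf45, a splicing factor, was not called, with 83.6 FPKM in knockdown and 70.0 FPKM in control CNS.

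The proximal genes of the mitochondrion included the most abundant transcripts of the proximal stretches. All 7 were above 0 in both tables, with ratios between 0.24 and 0.46, and 4 were called higher. Ucrh, the hinge protein of respiratory complex III, had 158 FPKM in knockdown and 119 FPKM in control CNS, a log2 ratio of 0.46 (0.32 to 0.59). CG40002, annotated as the complex I subunit gene ND-AGGG, had 139 FPKM in knockdown and 106 FPKM in control CNS, a log2 ratio of 0.41. Tim17b, a subunit of the inner membrane import channel on 3R, had 119.5 FPKM in knockdown and 94.4 FPKM in control CNS. Of the 3 genes not called, 2 were close to the threshold, which is 0.32 on the log2 scale. CG32230, annotated as ND-MLRQ, had a log2 ratio of 0.36 in counts and 0.31 in FPKM. CG3262 (annotated as Nubpl, a complex I assembly factor) had 0.33 and 0.30. CG40042, annotated as the import channel gene Tim23, was farther below the threshold, with 0.24 and 0.23. mRpS5, a protein of the mitochondrial ribosome, was called higher, with 76.6 FPKM in knockdown and 59.4 FPKM in control CNS and a log2 ratio of 0.41.

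Genes of vesicle traffic, adhesion and signaling included the best known heterochromatic genes of 2L. lt (light, FBgn0002566; 22924795 to 22943135, plus strand) encodes the Vps41 subunit of the HOPS complex, which tethers vesicles to lysosomes. It had 28.0 FPKM in knockdown and 18.8 FPKM in control CNS, and 1157 and 772 mean normalized counts, a log2 ratio of 0.58 (0.50 to 0.67). CG32350, annotated as Vps11, another HOPS subunit gene that lies on 3L, had 7.14 FPKM in knockdown and 5.42 FPKM in control CNS, with log2 ratios of 0.27 in counts and 0.40 in FPKM, and was not called. cta (concertina), a G protein alpha subunit, had 25.4 FPKM in knockdown and 19.6 FPKM in control CNS, a log2 ratio of 0.41 (0.31 to 0.52). Alg-2, which encodes a calcium-binding EF-hand protein, lies on 3R and had 38.2 FPKM in knockdown and 25.0 FPKM in control CNS, a log2 ratio of 0.64 (0.52 to 0.76). CkIIalpha, the catalytic subunit of casein kinase II, and alpha-Cat, which links cadherins to actin, both had a log2 ratio of 0.47. Of the 8 proximal genes of this role 5 were called higher and 7 were above 0 in both tables. The exception was nAChRalpha4, a nicotinic acetylcholine receptor subunit, with 9.48 FPKM in knockdown and 10.3 FPKM in control CNS and a log2 ratio of -0.11, whose counting interval of -0.24 to 0.02 included 0. Gpb5, a glycoprotein hormone subunit beside CG40042, had 90.1 FPKM in knockdown and 86.5 FPKM in control CNS.

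**Figure D2:**
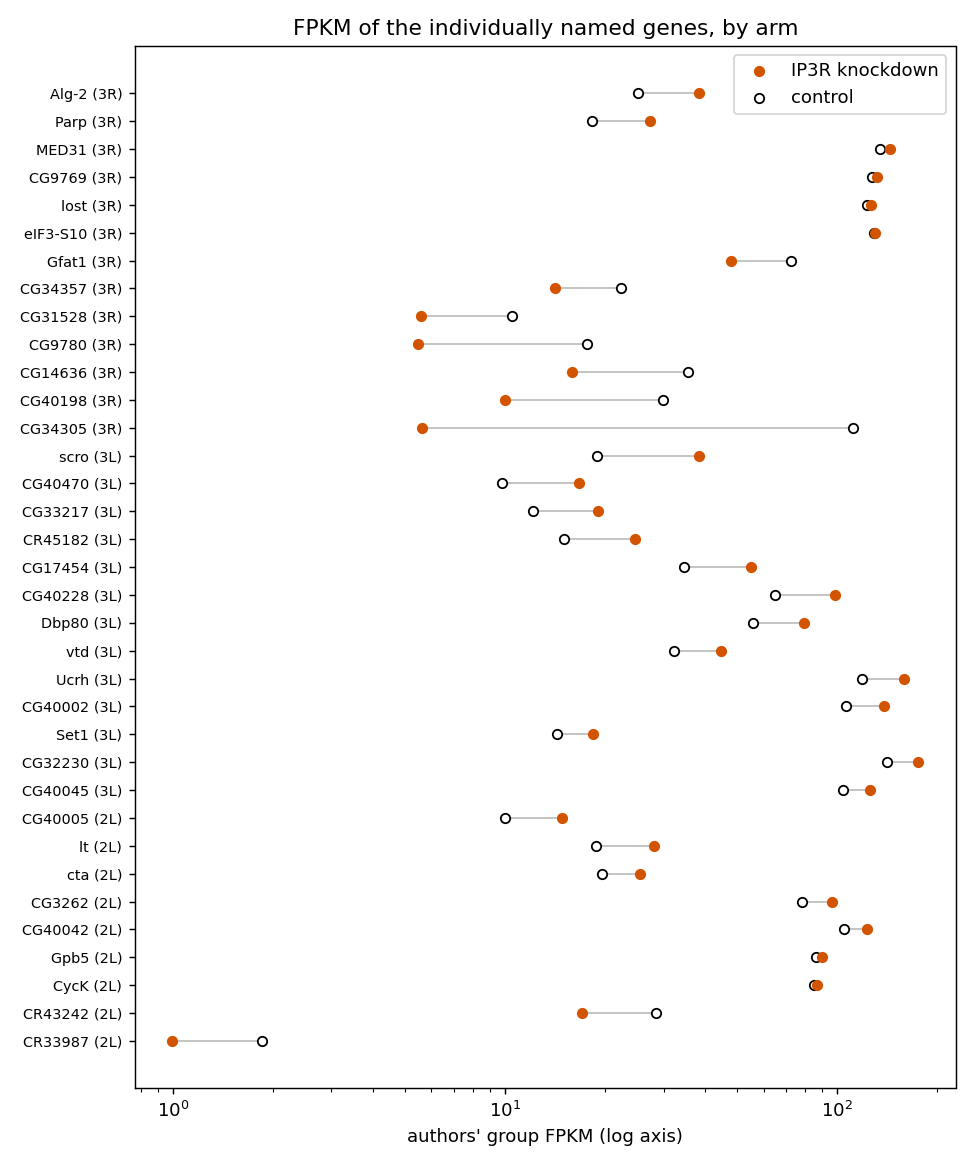
Group FPKM on a log axis (horizontal) for the individually named genes (vertical, with the arm in brackets); filled orange circles are the IP3R knockdown group and open circles the control group, with 1 value per group and no error available. The knockdown value lies to the right of the control value for every 3L gene drawn, and CG34305 on 3R shows the widest gap in the other direction, with 5.63 FPKM in knockdown and 111 FPKM in control CNS.

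Other proximal genes, without a role assigned here, are given by their ratios. On 3L, CG17698 stood at 0.53, CG40472 at 0.45 and CG40160 at 0.41, all called higher. CG17514, annotated as l(3)80Fj and the last gene of the 3L window, was not called, with 26.1 FPKM in knockdown and 20.2 FPKM in control CNS and log2 ratios of 0.21 in counts and 0.37 in FPKM. On 3R below 4 Mb, CG41128 stood at 0.37 and CG41099 at 0.44. On 2L, CG17490 was called higher at 0.56, and CG12567 (0.33), CG17493 (0.25) and CG17494 (0.18) were not called. Cht3, a chitinase gene on 2L annotated as Cht10, had 14.1 FPKM in knockdown and 13.9 FPKM in control CNS, a log2 ratio of 0.03 whose counting interval of -0.05 to 0.10 included 0. The noncoding RNAs CR43241 on 2L (0.31) and CR45164 on 3L (0.08) were not called.

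On 2L the ratio differed along the window. The 7 genes within 200 kb of the boundary had a median of -0.09, with 0 called higher and 3 lower. The 15 genes beyond them had a median of 0.29, with 5 called higher, 1 lower and 13 above 0 in both tables. Centred on the 200 genes nearest in exon length, the 7 genes had a median of 0.09 with 5 of 7 above 0. The 15 genes then had 0.42 with 12 of 15 above 0. The median below 0 was thus not present after centring. Like the windows, this division was made with earlier results of these data known. The distal genes called lower were tio, the long noncoding RNA CR33987, which shares its locus, and CG42748, which had 38.6 FPKM in knockdown and 51.8 FPKM in control CNS. CR33987 had the lowest level of all 128 genes in FPKM, with 0.995 FPKM in knockdown and 1.86 FPKM in control CNS. The gene called lower deeper in the arm was another long noncoding RNA, CR43242, with 17.0 FPKM in knockdown and 28.4 FPKM in control CNS and a log2 ratio of -0.75 (-0.92 to -0.57). The pseudogene CG40005, close to lt, had 14.9 FPKM in knockdown and 10.02 FPKM in control CNS, a log2 ratio of 0.61.

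The genes nearest to the boundaries are given as a description. On 2L, the nearest genes inside the boundary were CR33987, tio and CG3651, with log2 ratios of -1.05, -0.37 and -0.09, and the nearest outside were tsh, CG31612 and CG1416, with -0.15, 0.44 and 0.13. On 3R, Cdep, UbcD6 and CG1124 inside the boundary had -0.60, 0.29 and 0.16, and corto, CG12007 and dpr16 outside had -0.14, 0.17 and -0.03. On 3L, CkIIalpha, CG33217 and CG32350 inside had 0.47, 0.65 and 0.27, and nrm, Mes2 and CG12768 outside had -0.70, 0.10 and 0.18. The 381 genes within 2 Mb outside the 3 boundaries had a median of 0.05, with 19 called higher and 42 lower.

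Of the 75 genes of 3R between 4 and 5 Mb, 17 (22.7%) were called lower, beside 16.4% of all genes tested. The widest difference was at CG34305, a short gene of 300 exon bases, with 8.44 mean normalized counts in knockdown and 152 in control CNS, a log2 ratio of -4.17 (-4.87 to -3.47). CG40198 had 10.01 FPKM in knockdown and 29.9 FPKM in control CNS, a log2 ratio of -1.68 (-1.96 to -1.40). CG14636 had 15.9 FPKM in knockdown and 35.6 FPKM in control CNS, a log2 ratio of -1.10. CG9780, annotated as the neprilysin-like gene Nepl11, was lower in both tables but by different amounts, -0.96 in counts and -1.69 in FPKM, and it shares a locus with cpx, the gene of the synaptic vesicle protein complexin, whose log2 ratio was 0.04 in counts. CG31528 had 5.58 FPKM in knockdown and 10.5 FPKM in control CNS, a log2 ratio of -0.77 in counts, and CG34357 had 14.1 FPKM in knockdown and 22.4 FPKM in control CNS, a log2 ratio of -0.68. Gfat1, the entry enzyme of the hexosamine pathway that supplies chitin and protein glycosylation, had 47.9 FPKM in knockdown and 72.4 FPKM in control CNS, a log2 ratio of -0.61 (-0.68 to -0.55).

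The other 10 lower calls of this stretch ran between -0.65 and -0.32. ctrip, the most abundant of them in counts, had 4016 mean normalized counts in knockdown and 6229 in control CNS, a log2 ratio of -0.63. CG43427, annotated as smash, stood at -0.65 in counts and -0.38 in FPKM, and Cdep at -0.60 in counts and -0.44 in FPKM. The medians in counts for genes of like exon length were -0.63 for ctrip, -0.60 for CG43427 and -0.65 for Cdep. In counts these 3 genes were thus near other genes of their length, whereas 11 lower calls of the windows remained after centring on exon length. Nep2, a neprilysin metallopeptidase gene, had 13.3 FPKM in knockdown and 18.2 FPKM in control CNS, a log2 ratio of -0.46. Syt14, of the synaptotagmin family, had 21.7 FPKM in knockdown and 27.7 FPKM in control CNS, a log2 ratio of -0.34. The smallest difference called was at aux, the gene of the clathrin uncoating factor auxilin, with 33.5 FPKM in knockdown and 42.6 FPKM in control CNS and a log2 ratio of -0.32.

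Several genes of the same stretch had nearly equal levels in both groups, among them genes of the roles described above. CG11739, annotated as the mitochondrial carrier gene Sfxn1-3, had 114 FPKM in knockdown and 117 FPKM in control CNS, a log2 ratio of -0.03. CG9791, annotated as the mitochondrial RNA helicase gene Suv3, had 31.7 FPKM in knockdown and 30.8 FPKM in control CNS, a log2 ratio of 0.04. eIF3-S10, which encodes the largest subunit of translation initiation factor eIF3, had 129.7 FPKM in knockdown and 129.0 FPKM in control CNS, a log2 ratio of 0.02 (-0.02 to 0.05). CG9769, annotated as another eIF3 subunit gene, eIF3f1, had 131 FPKM in knockdown and 127 FPKM in control CNS. lost, a gene of messenger RNA localization in the germline, had 126 FPKM in knockdown and 123 FPKM in control CNS, and MED31, a Mediator subunit gene, had 144 FPKM in knockdown and 135 FPKM in control CNS. Among the 6 higher calls in this stretch were Dsk, the gene of the drosulfakinin neuropeptides, with 96.1 FPKM in knockdown and 71.6 FPKM in control CNS and a log2 ratio of 0.44, and Hus1-like, a DNA damage checkpoint gene, with 37.3 FPKM in knockdown and 26.0 FPKM in control CNS. The other higher calls were the long noncoding RNA CR44922 (0.50), CG34112 (0.50), slx1, a subunit of a structure-specific endonuclease (0.44), and CG14645 (0.39). Genes of these paragraphs outside the naming rule were picked after their values were seen.

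**Figure D3:**
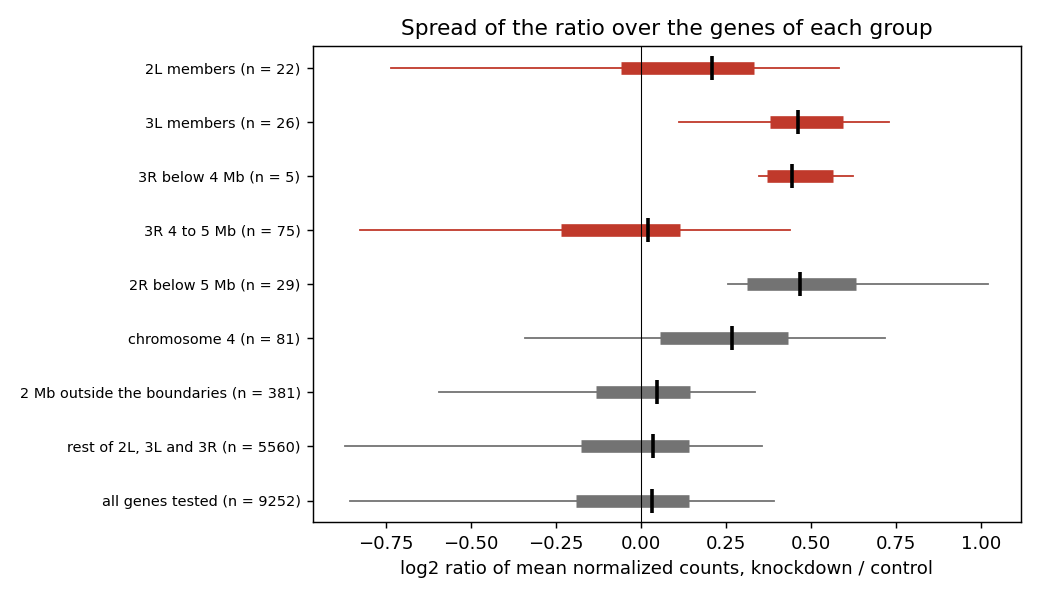
Spread of the log2 ratio of mean normalized counts, knockdown over control (horizontal axis), over the genes of each group (vertical); thick bars run over the middle of the distribution (25th to 75th percentile), thin lines over the 5th to 95th percentile, and black ticks mark medians, with the pericentromeric windows in red and the comparison groups in grey. The medians of 3L (0.46) and of 3R below 4 Mb (0.44) stand beside 0.47 for 2R below 5 Mb, 0.27 for chromosome 4 and 0.03 for all genes.

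Of the 53 proximal genes, 30 were called higher, 4 lower and 46 were above 0 in both tables, with a median of 0.38 in counts and in FPKM. Other regions were set beside them. On 2R, 29 genes below 5 Mb, a window added after the values were seen, had a median of 0.47, with 21 called higher and 0 lower. Chromosome 4, which is largely packed as heterochromatin although its genes are expressed, had a median of 0.27 over 81 genes, with 32 called higher and 4 lower. The 73 genes of the X from 21 Mb had a median of 0.02, with 5 called higher and 9 lower. Their median intron share was 29.3%, against 81.1% on 2R below 5 Mb. How much of this X window is heterochromatin was not determined, so it does not stand for X heterochromatin. The remaining 5560 genes of 2L, 3L and 3R had a median of 0.04, with 5.77% called higher. Whether any of these differences exceeds the spread between libraries could not be tested with group values.

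The 4 ribosomal protein genes of the windows, left out by the rule, had log2 ratios between 0.08 and 0.10 and 0 calls. They are highly expressed, with a median of 202 FPKM in knockdown and 193 FPKM in control CNS. By expression level in control CNS, the proximal genes had medians of 0.49 under 20 FPKM (18 genes), 0.44 at 20 to 50 FPKM (15 genes), 0.34 at 50 to 100 FPKM (14 genes) and 0.37 at 100 FPKM or more (6 genes, between 0.24 and 0.46). The middle spread of the ratio over all genes, between the 25th and 75th percentiles, narrowed over the same classes, at 0.70, 0.44, 0.23 and 0.10. Duplicate reads had been removed before counting, and the part of this step in these values was not tested.

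Genes of the machinery that builds heterochromatin were set beside the residents. Of 21 listed factors, among them the histone methyltransferases Su(var)3-9, egg and G9a and several HP1 family proteins, 19 were tested. None was called higher or lower, with 0 of 19 in each direction, a median of -0.04 and a range of -0.33 to 0.29. Their summed FPKM was 1357 in knockdown and 1337 in control CNS.

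The rule had not used gene structure, which differed between the arms. The proximal 53 genes had a median span of 6569 bases with 63.0% of it intron, and the median intron share was 18.8% on 2L, 73.3% on 3L and 81.7% on 3R below 4 Mb, against 23.8% for 3R between 4 and 5 Mb and 19.3% over all genes tested. Exon length was similar, with a median of 2348.5 bases for the proximal genes with an annotation and 2193.5 bases over all genes tested. Of the 5 proximal genes that span 100 kb or more, 4 were called higher: CG40470 (0.75), CG40178 (0.60, the longest with 215672 bases), Dbp80 (0.59) and Parp (0.56). CG40006 had -0.12, with 2.72 FPKM in knockdown and 3.00 FPKM in control CNS. Outside the windows, 65 genes spanned 100 kb or more, and 46 of them were called lower and 4 higher, with a median of -0.46. Only 5 of those 65 were above 0 in both tables, and 4 of the 5 lie on 2R below 5 Mb. These 65 genes also had long exons, with a median of 10190 exon bases against 2990 for the 5 proximal genes. With the median of the 200 genes nearest in exon length subtracted, the 5 proximal genes had a median of 0.58, with 4 of 5 above 0. The 65 genes then had a median of 0.04, with 36 of 65 above 0. Under that reading the medians no longer differed in sign but still lay apart. The 4 genes of 2R below 5 Mb among the 65 had a median of 0.66, with 4 of 4 above 0.

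**Figure D4:**
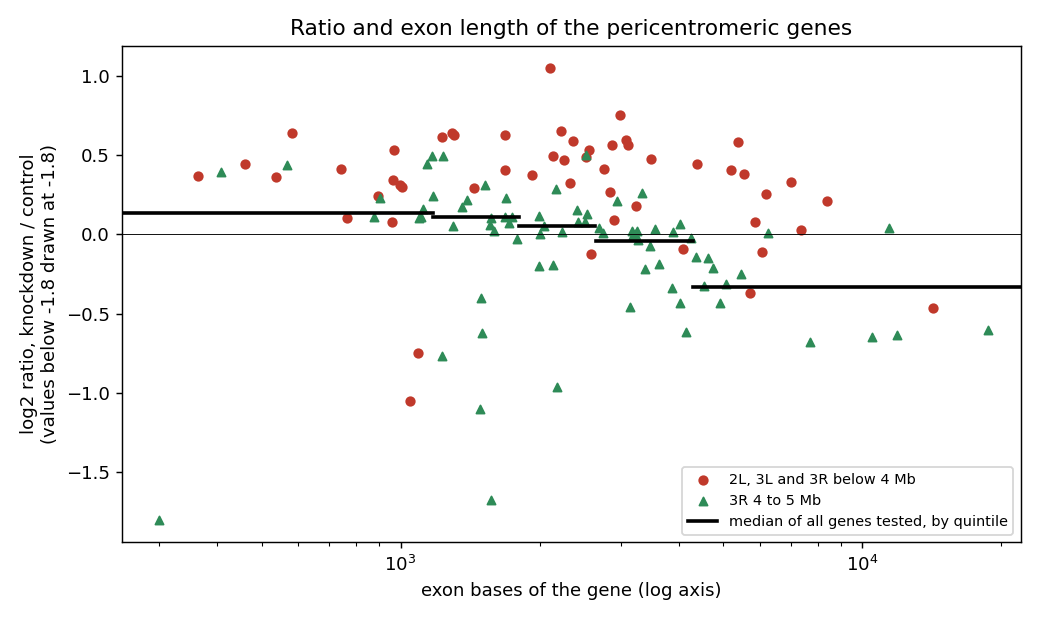
Log2 ratio of mean normalized counts, knockdown over control (vertical axis), against exon bases per gene on a log axis (horizontal axis) for the pericentromeric genes with an annotation; red circles are 2L, 3L and 3R below 4 Mb, green triangles 3R between 4 and 5 Mb, and black lines the median of all genes tested in each of 5 classes of exon length. The black lines step down to -0.33 for the longest genes, while the red circles of that length have a median of 0.23.

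Across all genes tested the ratio went down with exon length, with medians of 0.14, 0.11, 0.05, -0.04 and -0.33 in the 5 classes of equal size from short to long. The genes of 3R between 4 and 5 Mb showed 0.19, 0.07, 0.08, 0.00 and -0.31. The proximal genes had 0.33, 0.62, 0.49, 0.44 and 0.23 (14, 6, 10, 10 and 12 genes). Spearman's rho between ratio and exon length, given as a description over genes that share the same libraries, was -0.20 over the proximal genes, -0.48 over the genes of 3R between 4 and 5 Mb and -0.54 over all genes. With the median of the 200 genes nearest in exon length subtracted, the proximal genes had a median of 0.40. Of 52 proximal genes, 46 were above 0. The 3L genes had 0.49, and the genes of 3R between 4 and 5 Mb had 0.00. Among the latter, the 9 genes between 4 and 4.2 Mb had -0.09, with 2 of 9 above 0. Chromosome 4 had a median of 0.43 with 71 of 79 genes above 0, and 2R below 5 Mb had 0.46 with 27 of 27. Medians above 0 after this centring were thus not particular to the proximal genes. By this reading 33 of the 127 genes with an annotation were called higher, 26 of them shared with the 36 above, and 11 were called lower, all 11 shared with the 21 above.

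Long genes were set against low medians under this reading. Set1 with 5555 exon bases stood at 0.38 beside a median of -0.26 for genes of its length, lt with 5368 exon bases stood at 0.58 beside -0.25, and CycK with 5858 exon bases stood at 0.08 beside -0.30. Gfat1 stood at -0.61 beside -0.11 for genes of its length. Exon length here counts every annotated exon base of a gene, which can exceed the transcript expressed. In control CNS, lt had 772 mean normalized counts at 18.8 FPKM and CycK 1584 at 85.1 FPKM. CG3262, with 7023 exon bases, had 817 at 78.5 FPKM. The length class of genes such as CycK and CG3262 is thus uncertain, and so is their centred ratio, which was 0.73 for CG3262 against 0.33 before centring. What relates exon length to the ratio was not tested.

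Reads of overlapping genes could not be told apart, since the library protocol is not stated to keep strand. Of the 128 genes, 50 share a CuffDiff locus with another gene. On 3L, CG40178, annotated as l(3)80Fg, and its antisense RNA CR45182 share a locus and had log2 ratios of 0.60 and 0.64. On 3R, CG9804 and its antisense RNA CR44134 had log2 ratios of 0.11 each, with 709 and 683 mean normalized counts in knockdown and 656 and 633 in control CNS, although their FPKM in knockdown CNS was 4.34 and 84.0. Values of such pairs are uncertain. The 46 protein coding genes of the proximal stretches had a median of 0.40. The 10 noncoding RNAs and pseudogenes of the whole windows had a median of 0.14, with 3 called higher and 2 lower. Some of these, such as CR44922 and CR44134, lie on 3R between 4 and 5 Mb, so the medians do not compare like stretches.

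Of the genes listed in the windows, 100 had no row in the edgeR table and were not described above. CuffDiff listed 14 of them at 0 FPKM in both groups, and 33 had 1 FPKM or more in either group.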

How the data were processed

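RNA from 5 pooled CNS samples, 2 IP3R knockdown and 3 control, was sequenced by the authors, grouped here by the labelled genotype and phenotype. Per the study's methods and the submitters' processing notes, reads were aligned to dm6 with TopHat2 2.0.11, PCR duplicates were removed with Samtools, group FPKM was computed by the authors with Cuffdiff 2.2.0, and counts per gene from GenomicRanges entered DESeq and edgeR (versions not given in the sources used here). CASAVA is also listed. The deposited DESeq table holds mean normalized counts per group, a signal and not whole counts. The edgeR table deposited by the authors holds an average log2 expression level, and only the presence of its row was used. No column holds a value per library (0 such columns were left unused), so no test over libraries and no count model was fitted, and depth per library is unknown.

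The tables also hold the authors' fold changes, p-values and test statistics, which were not used. The header of the deposited DESeq table does not name its groups. The overall mean equals the mean of both group values weighted by 3 and 2 to within 3.6e-06 in every row, and 96.1% of tested genes have the same sign of ratio in both tables, from which its first group was taken as control.

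Tables were joined on the gene symbol in pandas 2.3.3 and plotted in matplotlib 3.10.9, under Python 3.11.15 with SciPy 1.17.1 and NumPy 2.4.6. A minimum overall mean of 10 normalized counts removed no gene. Of 9346 rows in the edgeR table of the authors, 9274 joined and 22 were listed at 0 in a group of a table. Exon length, span, strand, biotype and current names came from Ensembl release 115 on dm6 coordinates, and 98.8% of the tested genes and 127 of the 128 members had an exon length. The positions given are 1-based.

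The members, lists and windows were chosen with earlier results of these data known. Genes were named by rule: the 4 highest in control FPKM per arm, the 8 largest called increases and decreases, and well known heterochromatic genes. Further genes were named for their roles, as examples of a group or as boundary neighbours. The calling code was tested on simulated data. Alternatives covered the fold, the table, the low value filter, a pseudocount (1 count, 0.1 FPKM), centring, exon length, shared loci and the 3R boundary. The 4 named genes that the rule omits are not reported here.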

Additional observations from a re-analysis of the deposited data

How the results depend on the processing

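No replicate error could be computed for a gene of the windows, and the authors' p-values were not used. Ratios near the threshold may thus not hold in other libraries, and counting intervals understate the uncertainty. No paired analysis was possible because the deposited columns carry group values and no replicate number, and no library could be left out for the same reason. At a fold of 1.5 in both tables, 7 members were higher and 10 lower. Centred on genes of like exon length, 11 of 127 were lower and 33 higher. Without genes of shared loci, which leaves 78, 10 were lower. With the 3R boundary at 4.2 Mb, 8 of 62 genes were lower and the medians were 0.35 in counts and 0.36 in FPKM. With it at 4 Mb, chosen after seeing the data, 4 of 53 were lower and both medians were 0.38. The cause was not tested, but the last 2 settings leave out 3R genes by construction. The other alternatives (either table alone, a ratio of at most 0.75 for lower, no minimum or a minimum of 50 counts, a pseudocount, centring on all genes) kept both counts within 1.5 times the reported ones. Of 47 medians, bins and single ratios, 43 moved by less than a counting error with FPKM in place of counts. That error was the gene's own for a single ratio. For medians and bins it was 0.042, the median error of single members. Centring on all genes lowers every ratio by the same 0.03, so no median or bin could pass 0.042 by construction. Under it 4 single ratios with small counting errors moved, among them eIF3-S10, which was put at -0.01.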
